A study of Arabidopsis thaliana with 5 samples.

Results

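TAS1a (AT2G27400), TAS1b (AT1G50055), TAS1c (AT2G39675) and TAS2 (AT2G39681) are the Arabidopsis thaliana genes for trans-acting siRNA (tasiRNA) precursors that carry a target site of miR173. They are 4 of the 38030 annotated nuclear and chloroplast genes, and were chosen by name, with every mapped read that overlaps them counted in each of the 5 libraries of the study. All RNA came from unopened flower buds. The base-paired RNA (dsRNA-seq) was sequenced from the rdr6 mutant (allele rdr6-11 in the Col-0 background) after 1 round of rRNA depletion (1X), and from wild-type Col-0 plants after 2 rounds (2X) or 1 round, and the small RNA (smRNA-seq) from rdr6 and from Col-0. In dsRNA-seq, RNA pooled from 3 biological replicates was treated with a ribonuclease that degrades single-stranded RNA, fragmented and sequenced with its strand kept. Each condition has 1 library, so no difference below has a replicate check, and every test compares libraries and not genotypes. The members held 105 of 8193747 mapped reads in rdr6 dsRNA, 750 of 13773151 in Col-0 2X dsRNA, 4736 of 10294611 in Col-0 1X dsRNA, 503 of 11123274 in rdr6 smRNA and 41545 of 10674768 in Col-0 smRNA, with a read that lies in several members counted once in these sums.

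A tasiRNA precursor is a non-coding transcript that is cut by AGO1 loaded with a miRNA. At the TAS1 and TAS2 genes this miRNA is miR173, and SGS3 and the RNA-dependent RNA polymerase RDR6 then make the fragment that follows the cut double-stranded. DCL4, a Dicer-like ribonuclease, cuts this dsRNA stepwise from the cleaved end into siRNAs of 21 nt, so that their ends fall into a register set by the miR173 cut. The siRNAs act in trans on other transcripts, among them mRNAs of pentatricopeptide repeat (PPR) proteins, which bind RNA in mitochondria and chloroplasts.

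All 4 genes lie on the minus strand and are annotated as single-exon non-coding RNA genes. TAS1a is at chr2:11721539-11722468 (930 bases), TAS1b at chr1:18549204-18550042 (839 bases), TAS1c at chr2:16537288-16538277 (990 bases) and TAS2 at chr2:16539384-16540417 (1034 bases). TAS1c and TAS2 are neighbours, 1106 bases apart, and these bases held 0 to 4 reads in any of the 5 libraries. The 500 bases on either side of each gene held 0 to 18 reads a library. At the 3′ end of TAS1c, 31 bases overlap AT2G39670 on the opposite strand, and 78 bases near the 5′ end of TAS1b lie opposite the miRNA gene MIR5636. These overlaps held 0 to 5 reads a library.

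The trigger and its sites are shown first, because positions, cuts and registers below are counted from them. Sequences are those of the RefSeq reference (assembly TAIR10.1), whose nuclear coordinates match the TAIR9 locations of the reads, and run 5′ to 3′. In miR173 (chr3:8236161-8236182, plus strand) the capitals mark the seed, bases 2 to 8. In the sites the capitals mark bases that form no Watson–Crick pair with miR173, and each site was the best complementary match in its gene.
miR173: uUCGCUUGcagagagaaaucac
TAS1a site (chr2:11722081-11722102, minus strand): gugauuuUucucuAcaagcgaa
TAS1b site (chr1:18549660-18549681, minus strand): gugauuuUucucAAcaagcgaa
TAS1c site (chr2:16537890-16537911, minus strand): gugauuuUucucuAcaagcgaa
TAS2 site (chr2:16539991-16540012, minus strand): gugauuuUucucuCcaagcgaa
TAS1a and TAS1c had the same site sequence. TAS1a, TAS1c and TAS2 had 2 bases without a Watson–Crick pair and TAS1b had 3, and in every site 1 of these bases was a G:U pair. The next best match in any of the genes differed from a full complement at 8 to 10 bases. Cut between the bases opposite miR173 bases 10 and 11, the fragment that follows begins at position 379 of TAS1a, 374 of TAS1b, 379 of TAS1c and 418 of TAS2, counted from the 5′ end of each gene. It is 552, 466, 612 and 617 bases long.

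The siRNA locations with the most 21-nt reads in Col-0 smRNA follow, 3 for each gene, with the first base in capitals. The processed data hold no read sequences, so each line is the reference at that location, and the reads there could differ from it by up to 6% of their bases.
TAS1a, sense from position 526 (chr2:11721923-11721943, minus strand): Augauauuuguaguaauggcg
TAS1a, sense from position 463 (chr2:11721986-11722006, minus strand): Ugauuggaucuuaggaaauua
TAS1a, TAS1b and TAS1c, sense from positions 484, 479 and 421 (chr2:11721965-11721985, chr1:18549544-18549564 and chr2:16537837-16537857, minus strand): Uucuaaguccaacauagcgua
TAS1b, sense from position 542 (chr1:18549481-18549501, minus strand): Aaugggagauguccggaauga
TAS1b, antisense to positions 462 to 482 (chr1:18549561-18549581, plus strand): Agaauaugcuauguuggacuu
TAS1c, antisense to positions 546 to 566 (chr2:16537712-16537732, plus strand): Uucuuuagacgacuugaaaau
TAS1c, sense from position 379 (chr2:16537879-16537899, minus strand): Uacaagcgaauagaccauuua
TAS2, antisense to positions 542 to 562 (chr2:16539856-16539876, plus strand): Auaagacugaaacauauaugu
TAS2, antisense to positions 629 to 649 (chr2:16539769-16539789, plus strand): Uuuugcauauacucgaauacc
TAS2, sense from position 418 (chr2:16539980-16540000, minus strand): Uccaagcgaaugaugauacuu
The sense siRNAs of TAS1c at 379 and of TAS2 at 418 begin with the first base after the cut. The third line is a single 21-nt sequence present in all 3 TAS1 genes. TAS1c also had abundant 24-nt reads, and its most frequent locations of that length were the following.
TAS1c, 24 nt, sense from position 464 (chr2:16537791-16537814, minus strand): Aacuagaaaagacauuggacauau
TAS1c, 24 nt, antisense to positions 552 to 575 (chr2:16537703-16537726, plus strand): Uagcaacuguucuuuagacgacuu

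In smRNA-seq, each of the 4 genes had far fewer reads in rdr6 than in Col-0. TAS1a had 295 reads in rdr6 smRNA, against 13300 in Col-0 smRNA. TAS1b had 45 reads in rdr6 smRNA and 3443 in Col-0 smRNA. TAS1c had 117 reads in rdr6 smRNA and 15045 in Col-0 smRNA, and it had the most reads of the 4 in Col-0 while TAS1a had the most in rdr6. TAS2 had 89 reads in rdr6 smRNA and 12436 in Col-0 smRNA. The log2 ratio of rdr6 to Col-0, scaled by mapped reads, was −5.55 for TAS1a (95% interval −5.73 to −5.39), −6.32 for TAS1b (−6.77 to −5.89), −7.07 for TAS1c (−7.34 to −6.80) and −7.19 for TAS2 (−7.50 to −6.89). TAS1a thus fell the least in smRNA reads, and its interval does not overlap those of the other members. With each non-redundant sequence counted once, its interval (−4.32 to −3.59) overlapped that of TAS1b (−5.05 to −3.92). These intervals cover counting error only. A gene was called where the libraries differed by a ratio of at least 2 with p under 0.001 in the one-sided exact test of Audic and Claverie. All 4 members were called lower in rdr6, against 4.07% of the 12100 genes tested (0.694% were called higher). Their adjusted p-values (Benjamini–Hochberg over all genes tested) were below the smallest number the program holds. The median log2 ratio of all genes tested was 0.00445.

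**Figure D1:**
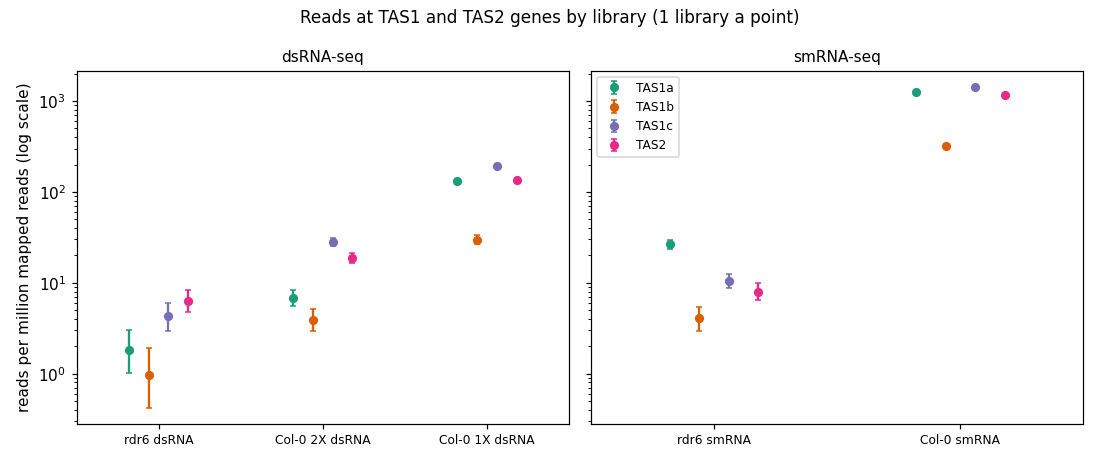
Reads at each gene in each library, in RPM (scaled by mapped reads) on a log scale, with dsRNA-seq on the left and smRNA-seq on the right. Each point is 1 library, and error bars are exact 95% Poisson intervals of the count. All 4 genes have their fewest reads in rdr6 in both assays, and in dsRNA-seq the Col-0 2X library lies between rdr6 and Col-0 1X.

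In dsRNA-seq the 4 genes were also lower in rdr6. TAS1a had 15 reads in rdr6, 94 in the Col-0 2X library and 1342 in the Col-0 1X library. TAS1b had 8 reads in rdr6, 54 in Col-0 2X and 305 in Col-0 1X. TAS1c had 35 reads in rdr6, 385 in Col-0 2X and 1984 in Col-0 1X. TAS2 had 52 reads in rdr6, 258 in Col-0 2X and 1375 in Col-0 1X, and it had the most dsRNA reads of the 4 genes in rdr6. The order of the libraries was thus the same at all 4 genes. The log2 ratio of rdr6 to Col-0 1X was −6.15 for TAS1a (−7.00 to −5.43), −4.92 for TAS1b (−6.15 to −3.93), −5.50 for TAS1c (−6.02 to −5.01) and −4.40 for TAS2 (−4.82 to −4.0). All 4 were called lower, against 5.19% of the 22714 genes tested. The exact adjusted p was 6.6e-65 for TAS1b and 8.6e-272 for TAS2, and smaller still for TAS1a and TAS1c. Over all genes tested the median log2 ratio was 0.384, with 1179 genes called lower and 3799 higher (16.7%). Scaled by reads outside rRNA and tRNA genes, this median was −0.268, with 2348 genes called lower and 1532 higher, and the 4 members stayed called.

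The 2 wild-type dsRNA libraries also differed at these genes. The log2 ratio of Col-0 2X to Col-0 1X was −4.26 for TAS1a (−4.57 to −3.95), −2.92 for TAS1b (−3.36 to −2.50), −2.79 for TAS1c (−2.95 to −2.63) and −2.83 for TAS2 (−3.03 to −2.64). All 4 were called lower in 2X, against 15.0% of the 25222 genes tested, whose median log2 ratio was 0.718. Set against the 2X library, rdr6 was lower by less. The log2 ratio of rdr6 to Col-0 2X was −1.90 for TAS1a, −2.01 for TAS1b, −2.71 for TAS1c and −1.56 for TAS2, and all 4 were called lower, against 13.4% of 25278 genes (median of all genes −0.431). The libraries differ in rounds of depletion, and per the labels the 2X library was made with another 3′ adapter sequence. An adapter was found in 64.4% of the reads of rdr6, 77% of Col-0 2X and 38.2% of Col-0 1X dsRNA. The part of these differences in the result was not tested.

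Values of miRNAs moved with the dsRNA result in the 2 comparisons with Col-0 1X, but not between rdr6 and Col-0 2X. MIR173 itself had 19 reads in rdr6, 63 in Col-0 2X and 428 in Col-0 1X dsRNA (log2 ratio of rdr6 to 1X −4.16, called lower), against 3039 in rdr6 and 3470 in Col-0 smRNA (−0.25, not called). Of 186 miRNA genes tested, 106 were called lower in rdr6 than in Col-0 1X dsRNA (57%, against 5.19% of all genes, median log2 ratio −2.15). Of 193 tested, 128 were called lower in Col-0 2X than in Col-0 1X (66.3%, against 15.0% of all genes, median −2.32). Between rdr6 and Col-0 2X the direction was the opposite of that of the members. Of 151 miRNA genes, 32 were called lower and 67 higher, with a median of 0.78. Of all 25278 genes tested there, 13.4% were called lower and 20.7% higher, with a median of −0.431. In smRNA-seq 17 of 276 miRNA genes were called lower in rdr6 (6.16%, against 4.07% of all genes, median −0.25). Among 21-nt dsRNA reads alone, the 4 members were called lower in rdr6 than in Col-0 1X, against 8.55% of 5336 genes, and so were 74 of 116 miRNA genes. The part of these differences in the dsRNA ratios of the members was not tested.

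Other checks of the libraries were as follows. RDR6 had 12 reads in rdr6 dsRNA, 80 in Col-0 2X and 23 in Col-0 1X dsRNA, and 8 in rdr6 and 3 in Col-0 smRNA. Reads of base-paired RNA do not test the mutant allele. The 5 flower bud markers (AP1, AP3, PI, AG and SEP3, transcription factors of floral organ identity) had reads in each dsRNA library and were not called between rdr6 and Col-0 1X, and of the root hair markers RHD6 had 0 dsRNA reads in each library and SHV2 had 3. In these bulk samples, fewer cells of a type and less RNA per cell cannot be told apart.

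The lower read numbers of the rdr6 libraries lay mostly after the miR173 cut. With each read counted once over the 4 genes, the fragment after the cut had 452 reads in rdr6 smRNA and 41469 in Col-0 smRNA, a log2 ratio of −6.58 (−6.72 to −6.45). The stretch before the cut had 47 reads in rdr6 smRNA and 59 in Col-0 smRNA, a log2 ratio of −0.39 (−0.97 to 0.19). The interval after the cut lies far below 0, while before it a difference was not detectable at this depth. In dsRNA-seq, 85 reads of rdr6 and 4722 of Col-0 1X lay after the cut (−5.47, interval −5.79 to −5.16), while 20 reads of rdr6 and 10 of Col-0 1X lay before it (1.33, interval 0.17 to 2.59). The 2X library had 718 reads after and 29 before the cut, so that its log2 ratio to 1X was −3.14 after (−3.25 to −3.02) and 1.12 before the cut (0.04 to 2.32). Neither dsRNA comparison showed fewer reads before the cut.

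By gene, the 4 log2 ratios of rdr6 to Col-0 smRNA after the cut ranged from −7.57 at TAS1c to −5.58 at TAS1a. Before the cut TAS1c had 32 reads in rdr6 and 37 in Col-0 smRNA, TAS2 13 and 6, and TAS1a 3 and 2. TAS1b was the exception, with 9 reads in rdr6 and 21 in Col-0 smRNA before the cut (−1.28, interval −2.59 to −0.09). Of these, 0 reads in rdr6 and 15 in Col-0 smRNA had 1 genomic location, so the 9 reads cannot be assigned to TAS1b alone. Of the reads at each gene, 98.0% at TAS1a, 80.0% at TAS1b, 70.1% at TAS1c and 84.3% at TAS2 lay after the cut in rdr6 smRNA. In Col-0 smRNA the shares were 99.9%, 99.3%, 99.7% and 99.9% in the same order. In the Col-0 1X dsRNA library they were 98.7 to 99.8%.

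**Figure D2:**
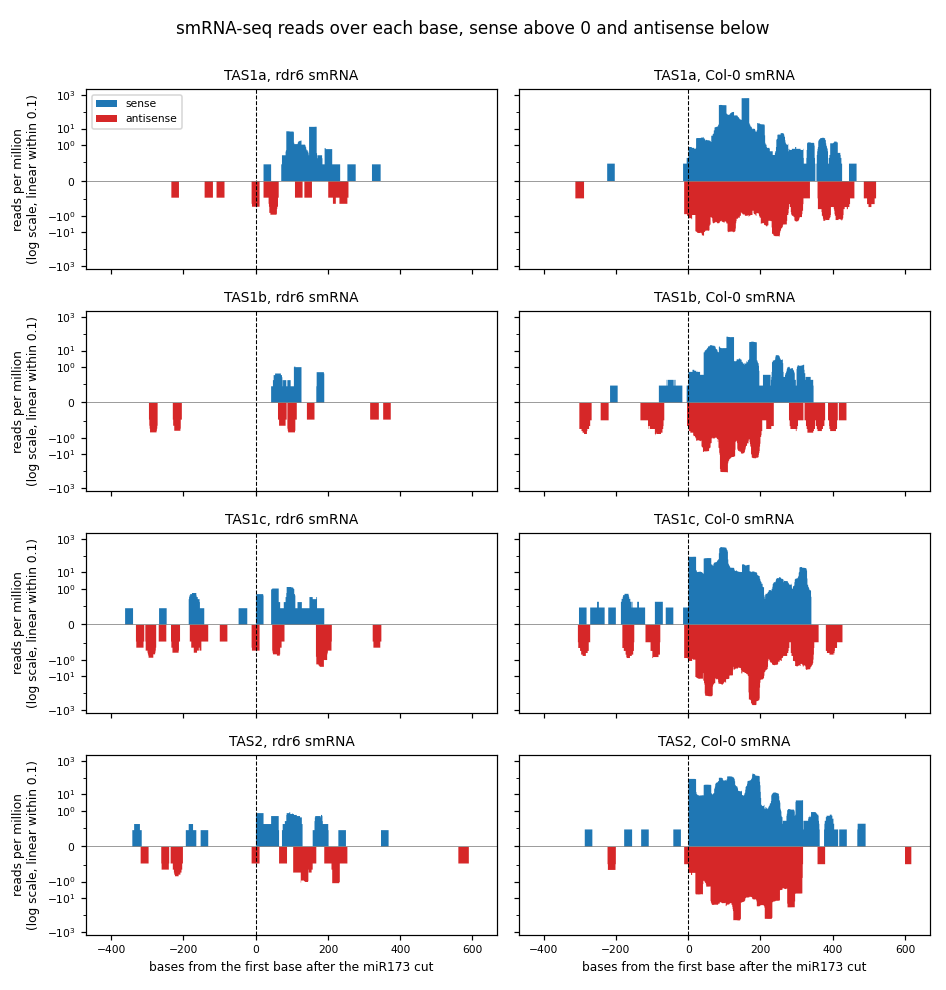
smRNA-seq reads over each base of the 4 genes, with rdr6 on the left and Col-0 on the right. The x axis is the distance in bases from the first base after the miR173 cut (dashed line), and the y axis is RPM (scaled by mapped reads) on a log scale that is linear within 0.1, with sense reads above 0 and antisense reads below. In Col-0 41469 reads lie after the cut, beginning at the cut at TAS1c and TAS2 and mostly some cycles later at TAS1a and TAS1b, and in rdr6 452 reads lie after and 47 before it.

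Reads became rare towards the 3′ end. In Col-0 smRNA, 94.4% of the 21-nt reads after the cut of TAS1a lay in cycles 5 to 8 of 21 bases, and 1.12% lay in cycle 13 or later. For TAS1b the share in cycle 13 or later was 1.78%, for TAS1c 3.07% and for TAS2 4.90%. The first cycle held very different numbers of 21-nt reads. It had 3 at TAS1a and 9 at TAS1b, against 935 at TAS1c and 857 at TAS2. The largest cycle was cycle 8 at TAS1a (7399 reads), cycle 6 at TAS1b (802), cycle 9 at TAS1c (2822) and cycle 7 at TAS2 (1760).

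Single siRNAs made up much of these totals. At TAS1a the sense siRNA from position 526 had 149 reads in rdr6 smRNA and 7330 in Col-0 smRNA, which is 61.6% of the 21-nt reads of the gene in Col-0. The sense siRNA from 463 had 67 reads in rdr6 smRNA and 2630 in Col-0 smRNA. Both begin in register, in cycles 8 and 5. At TAS1c the antisense siRNA opposite 546 to 566 had 13 reads in rdr6 smRNA and 1455 in Col-0 smRNA, and the sense siRNA that starts at the cut had 4 and 931. At TAS2 the antisense siRNA opposite 542 to 562 had 8 reads in rdr6 smRNA and 1503 in Col-0 smRNA. The siRNA that starts at the cut of TAS2 had 8 reads in rdr6 smRNA and 857 in Col-0 smRNA. At TAS1b the largest single-location siRNA, sense from 542, had 5 reads in rdr6 smRNA and 322 in Col-0 smRNA.

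Most reads left in rdr6 smRNA lay at locations that Col-0 smRNA also had. Of the rdr6 smRNA reads, 95.9% at TAS1a (95% Wilson interval 93.0 to 97.7%), 75.6% at TAS1b (61.3 to 85.8%), 82.1% at TAS1c (74.1 to 88.0%) and 82.0% at TAS2 (72.8 to 88.6%) had the strand, start and length of a Col-0 smRNA read. Of the 21-nt reads of Col-0 1X dsRNA, 97.4 to 99.4% did so by gene. Reads with the ends of siRNAs were thus part of this dsRNA library. In Col-0 1X dsRNA the TAS1a siRNA from 526 had 623 of the 1342 reads of the gene, while it had 2 of 15 reads in rdr6 dsRNA and 4 of 94 in Col-0 2X dsRNA.

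The length of the dsRNA reads bears on the dsRNA result. Reads of 20 to 25 nt made up 96.5% of the Col-0 1X dsRNA reads at TAS1a, 88.5% at TAS1b, 91.3% at TAS1c and 75.4% at TAS2. In rdr6 dsRNA they made up 53.3%, 25%, 28.6% and 42.3% in the same order, of 15, 8, 35 and 52 reads. Without the reads of 20 to 25 nt, all 4 members were still called lower in rdr6 than in Col-0 1X, with log2 ratios of −3.16 to −2.22 (4.03% of 20393 genes). Reads of 26 nt and longer, an alternative chosen after seeing the data, gave 21 reads at TAS2 in rdr6, 29 in Col-0 2X and 260 in Col-0 1X dsRNA, and 23, 22 and 122 at TAS1c. TAS1a had 6, 8 and 23 such reads in the same order, and TAS1b had 4, 9 and 20. With these reads TAS1c (log2 ratio of rdr6 to Col-0 1X −2.08, interval −2.79 to −1.43) and TAS2 (−3.30, interval −4.02 to −2.66) were called lower, against 6.15% of 15287 genes. TAS1a (−1.61, interval −3.20 to −0.27) and TAS1b (−1.99, interval −4.0 to −0.41) had fewer reads and were not called, though the ratio of TAS1b was about as low as that of TAS1c. TAS1c and TAS2 were also called when these reads were scaled by their own total, against 4.19% of genes.

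The long reads also separated the reference libraries. Between Col-0 2X and Col-0 1X, 3 of the 4 members were called lower with reads of 26 nt and longer (5.59% of 16170 genes), and TAS1b was not. Scaled by their own total, 2 of the 4 were called (2.54% of genes), TAS1c and TAS2. Between rdr6 and Col-0 2X, 0 of 4 were called (5.88% of 16081 genes), and the log2 ratios were 0.33 for TAS1a (−1.47 to 2.05), −0.42 for TAS1b (−2.57 to 1.42), 0.81 for TAS1c (−0.09 to 1.73) and 0.28 for TAS2 (−0.60 to 1.14). For long base-paired fragments, a lower level in rdr6 was thus seen against 1 of the wild-type libraries and not against the other.

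The long reads of TAS2 were concentrated. In Col-0 1X dsRNA, 208 of 260 long reads started at positions 556 to 595, the 40 bases with the most such starts, among them 53 at position 594 and 49 at position 583, and 250 of the 260 were sense. In rdr6 dsRNA 11 of 21 long reads started in the same 40 bases and 21 of 21 were sense, and in Col-0 2X dsRNA 14 of 29 did so and 24 of 29 were sense. At TAS1c the long reads of Col-0 1X were mostly antisense, 81 of 122, against 4 of 23 in rdr6 dsRNA and 10 of 22 in Col-0 2X dsRNA.

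**Figure D3:**
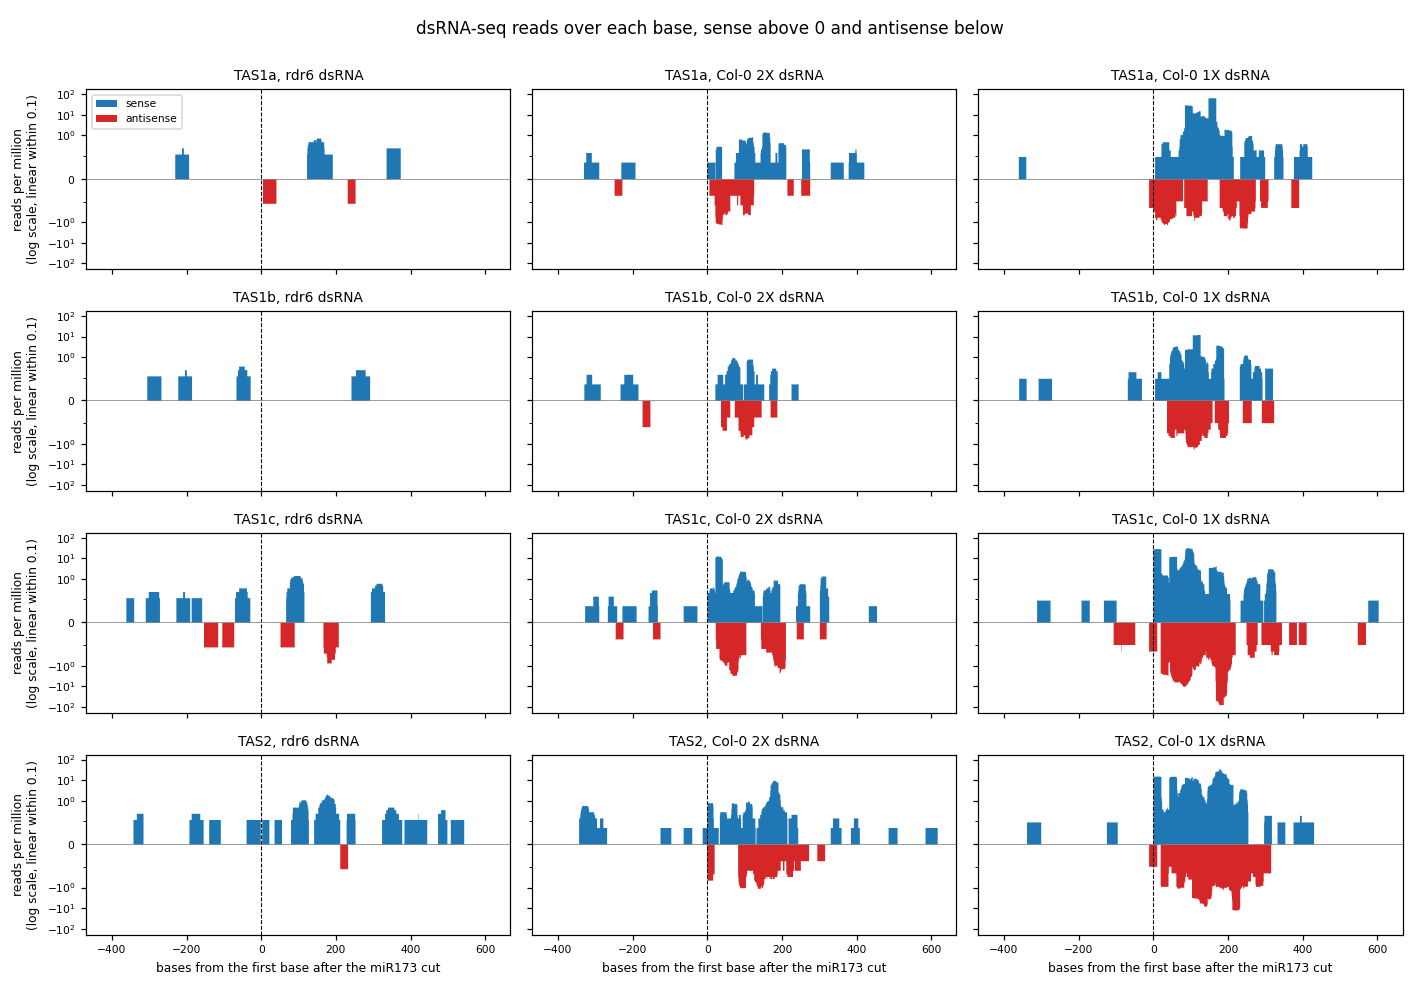
dsRNA-seq reads over each base of the 4 genes in rdr6 (left), Col-0 2X (middle) and Col-0 1X (right), drawn with the same axes as the smRNA-seq reads: distance in bases from the first base after the miR173 cut (dashed line), and RPM on a log scale that is linear within 0.1, sense above 0 and antisense below. Reads after the cut number 85 in rdr6, 718 in Col-0 2X and 4722 in Col-0 1X, while reads before the cut number 10 to 29 in every library.

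The most frequent locations of the Col-0 2X library differed from those of the others. At TAS1c, 89 of its 385 reads were 20 nt, sense, and started at position 400, the first base of cycle 2. From this start Col-0 smRNA had 4 sense reads of 20 nt and 72 of 21 nt. At TAS2, 27 of the 258 reads of Col-0 2X were 21 nt, sense, and started at position 587, where Col-0 smRNA had 6. The numbers of 2X reads at these locations did not follow those of the abundant siRNAs. The siRNA at the cut of TAS1c and of TAS2 had 0 reads in rdr6 and in Col-0 2X dsRNA, against 280 and 137 in Col-0 1X dsRNA.

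Strand use separated the genes. In Col-0 smRNA the sense strand held 94.9% of the TAS1a reads (94.5 to 95.2%), 51.0% of the TAS1b reads (49.3 to 52.6%), 48.2% of the TAS1c reads (47.4 to 49.0%) and 55.2% of the TAS2 reads (54.3 to 56.1%). In rdr6 smRNA the shares were 92.5% at TAS1a, 57.8% at TAS1b, 46.2% at TAS1c and 53.9% at TAS2. The intervals of rdr6 and Col-0 smRNA overlap at each gene. TAS1a stood apart from the other 3 genes in either library. Counted as non-redundant sequences, which takes out the weight of single abundant siRNAs, its sense share in Col-0 smRNA was 74.8%.

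In dsRNA-seq few antisense reads were left in rdr6, and their share moved in no common direction. TAS1a had 2 antisense reads in rdr6, 32 in Col-0 2X and 72 in Col-0 1X dsRNA. TAS1b had 0, 17 and 40 in the same order, and the interval of its sense share in rdr6, from 8 reads, was 67.6 to 100%. TAS1c had 9 antisense reads in rdr6, 94 in Col-0 2X and 1020 in Col-0 1X dsRNA. TAS2 had 1 antisense read of 52 in rdr6, 52 of 258 in Col-0 2X and 315 of 1375 in Col-0 1X dsRNA. The sense share at TAS2 was therefore 98.1% in rdr6 dsRNA (89.9 to 99.7%), 79.8% in Col-0 2X (74.5 to 84.3%) and 77.1% in Col-0 1X (74.8 to 79.2%). The interval of rdr6 lies above both wild-type intervals. At TAS1a the sense share was 86.7% in rdr6 (62.1 to 96.3%), 66% in Col-0 2X and 94.6% in Col-0 1X dsRNA. At TAS1c it was 74.3% in rdr6 (57.9 to 85.8%), 75.6% in Col-0 2X and 48.6% in Col-0 1X dsRNA. The share of TAS1c in rdr6 thus lay near that of one wild-type library and above that of the other.

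The length of the small RNAs was 21 nt above all. Among Col-0 smRNA reads of 19 to 26 nt, 21-nt reads made up 89.7% at TAS1a, 63.5% at TAS1b, 52.2% at TAS1c and 72.8% at TAS2, against 6.60% of all reads of these lengths in the library. In rdr6 smRNA the shares were 89.8%, 77.3%, 64.3% and 76.1% of 294, 44, 115 and 88 reads, against 4.50% in the library. Reads of 21 nt were thus the main class at these genes in both smRNA libraries.

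The minor lengths differed by gene. At TAS1c, 24-nt reads made up 9.57% of the reads in rdr6 smRNA (11 reads, interval 5.43 to 16.3%) and 23.6% in Col-0 smRNA (3470 reads, interval 22.9 to 24.3%). The 24-nt location from position 464 had 4 reads in rdr6 smRNA and 1194 in Col-0 smRNA. The antisense 24-nt location opposite 552 to 575 had 3 in rdr6 smRNA and 1057 in Col-0 smRNA. The 24-nt reads of TAS1c were therefore also lower in rdr6, while 24-nt reads made up 70.4% of the rdr6 smRNA library and 67.5% of the Col-0 smRNA library over the same lengths. At TAS1b 22-nt reads made up 11.4% of the reads in rdr6 smRNA (5 reads, interval 4.95 to 24%) and 23.8% in Col-0 smRNA (802 reads). Of these 802 reads, 532 lay at 1 antisense location, opposite positions 461 to 482.

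**Figure D4:**
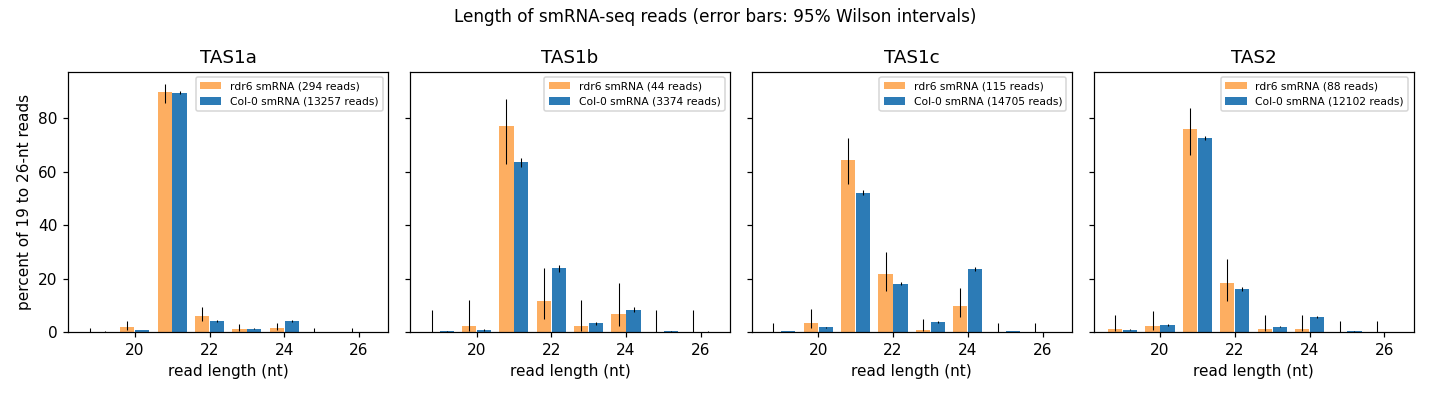
Length of the smRNA-seq reads at each gene, in percent of its reads of 19 to 26 nt, with rdr6 in orange left of Col-0 in blue and 95% Wilson intervals as error bars. The bar at 21 nt is the tallest in every panel, from 52.2% to 89.8%, and TAS1c in Col-0 has a further bar of 23.6% at 24 nt.

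The register asks whether the ends of 21-nt reads fall at multiples of 21 bases from the cut. Antisense reads were shifted by the 2-base 3′ overhang that Dicer leaves, and without a register 1 in 21 reads, 4.76%, would fall in each phase. In Col-0 smRNA, 93.1% of the 21-nt reads after the cut of TAS1a were in register (92.6 to 93.5%), 60.7% of those of TAS1b (58.6 to 62.7%), 34.3% of those of TAS1c (33.2 to 35.4%) and 44.1% of those of TAS2 (43.1 to 45.2%). In rdr6 smRNA the shares were 88.5% of 262 reads at TAS1a, 70.4% of 27 at TAS1b, 30.8% of 52 at TAS1c and 45.8% of 59 at TAS2. In Col-0 1X dsRNA they were 91.8%, 80.1%, 39.7% and 53.8% in the same order. The order of the genes by share was the same in these 3 libraries, and the reads left in rdr6 smRNA were about as often in register as those of Col-0. The intervals of rdr6 and Col-0 smRNA overlap at TAS1b, TAS1c and TAS2, and at TAS1a the interval of rdr6 (84.1 to 91.9%) lies below that of Col-0.

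A few siRNAs weighed on these shares. Without its largest location, the share in register in Col-0 smRNA was 82.0% at TAS1a, 41.2% at TAS1b, 42.4% at TAS1c and 32.6% at TAS2. Over 1060 genes with at least 100 21-nt reads at 10 or more start positions in Col-0 smRNA, the best of the 21 phases held a median of 11.8% of reads. As many as 11 of these genes, itself included, reached the share of TAS1a, 58 that of TAS1b, 120 that of TAS1c and 97 that of TAS2, so that the share by itself did not single out TAS1c or TAS2. With at least 4 occupied positions in the best phase, the numbers were 4, 14, 31 and 21. The phase score, which weighs reads in phase by the number of occupied cycles among 8, had its largest value in Col-0 smRNA at 55.9 for TAS1a, 42.9 for TAS1b, 46.4 for TAS1c and 49.5 for TAS2, in the register of the cut except at TAS1c, where it lay 1 base beyond. In rdr6 smRNA the largest values were 21.8, 5.99, 9.66 and 10 in the same order, and this score rises with the number of reads.

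Of cycles 1 to 15 in blocks of 5, the last block had the smallest share in register at each of the 4 genes. At the 3 genes with the most reads the leading phase moved away from the register of the cut. TAS1b had 75 reads in the last block. At TAS1c 59.2% of the 21-nt reads of cycles 1 to 5 in Col-0 smRNA were in the register of the cut and 9.13% were 1 base beyond it. In cycles 6 to 10, 9.06% were in register and 55.1% were 1 base beyond it. The antisense siRNA opposite 546 to 566 alone held 1455 of these 1921 reads, and without it 15.6% were in register and 22.9% were 1 base beyond it. In cycles 6, 7 and 8, which do not hold this siRNA, the phase 1 base beyond the register led with 57.4% of 169 reads, 59.4% of 101 and 80% of 325. In cycles 11 to 15 of TAS1c this phase no longer led, with 1.2% of 251 reads. Of these reads 4.38% were in register and 5.98% were 2 bases beyond it, but neither phase led. The sense location from position 686, in cycle 15, held 79 of the 251 reads. In that cycle the phase 8 bases before the register led with 54.8% of 146 reads. Without this location, a phase 10 bases before the register led cycles 11 to 15 with 19.2% of 172 reads. Counted for the whole gene, 29.8% of the TAS1c reads were 1 base beyond the register in Col-0 smRNA, 46.2% (24 of 52 reads) in rdr6 smRNA and 40.7% in Col-0 1X dsRNA.

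At TAS2 75.7% of the reads were in register in cycles 1 to 5, and 64.4% without the siRNA at the cut. In cycles 6 to 10, 46.6% were in register, but 12.7% without the antisense siRNA opposite 542 to 562, when a phase 8 bases from the register led with 18.8%. In cycles 11 to 15, 1.67% were in register, 18.2% were 2 bases beyond it and 74.1% were 3 bases beyond it. The antisense siRNA opposite 629 to 649, whose reads are shared with other genes, held 1399 of the 1646 reads at 3 bases, and without it 49.2% of 823 reads were 2 bases beyond the register, 30% were 3 bases beyond it and 4.5% were in it. The share in register in these last cycles was thus low with or without it, while the leading phase depended on it. Leaving out the largest location of a block of cycles was an alternative chosen after seeing the data.

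TAS1a had 94% of its reads in register in cycles 1 to 5 and 95.2% in cycles 6 to 10, and 41.3% and 70.2% without the largest siRNA of each block. In cycle 10 of TAS1a, 72.4% of 181 reads were 1 base beyond the register. Of the 149 reads of cycles 11 to 15 of TAS1a, 2.01% were in register, 13.4% were 1 base and 30.9% were 2 bases beyond it. A single antisense location, whose first position is 610, held 33 of these reads. Without it 2.59% of 116 reads were in register, 17.2% were 1 base and 11.2% were 2 bases beyond it. The leading phase there thus depended on 1 location. TAS1b had 29.7% in register in cycles 1 to 5 and 80.7% in cycles 6 to 10. In cycles 11 to 15 of TAS1b, 14.7% of 75 reads were in register. Without the largest location there, 17.5% of 63 reads were in register, and a phase 9 bases from it led with 20.6%. The low share of TAS1b in the first cycles came with the antisense siRNA opposite 462 to 482, which had 304 reads and lay 6 bases from the register, and without it the share was 51.2%. The main sequence of this siRNA, with 272 reads, had 2 genomic locations, so these reads cannot be assigned to TAS1b alone. On the sense strand alone, 84.8% of the TAS1b reads were in register, and 9.26% on the antisense strand. The strands differed in the same direction at TAS1a (95% of sense and 19.1% of antisense reads) and TAS1c (59.4% and 10.2%), and less at TAS2 (48.6% and 40%).

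**Figure D5:**
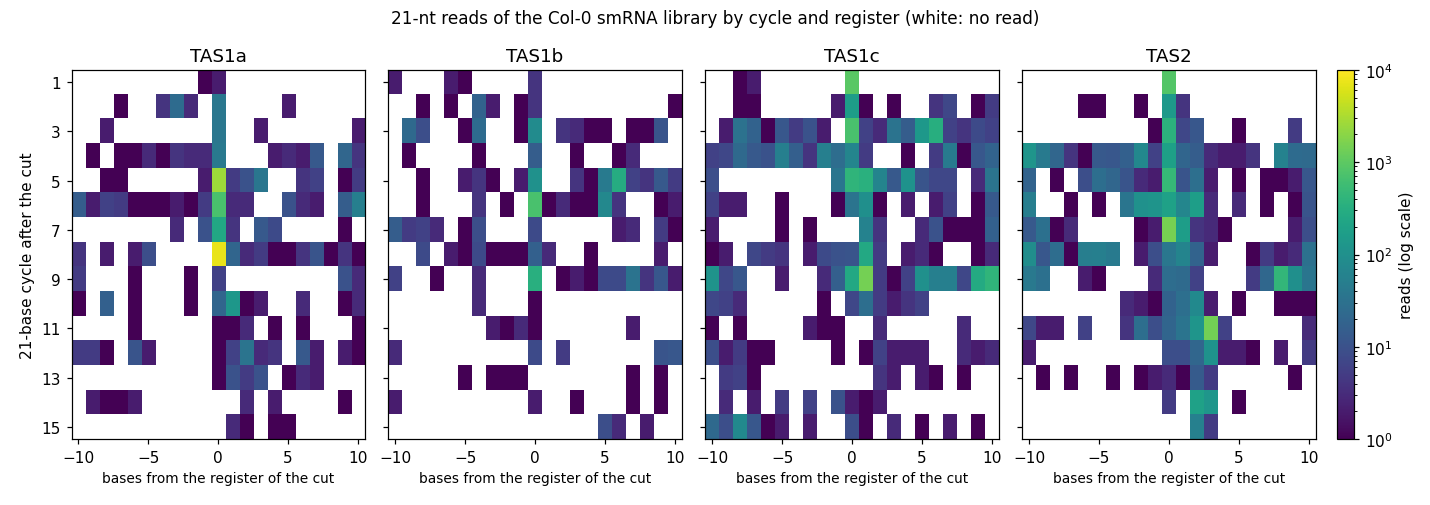
21-nt reads of Col-0 smRNA by cycle of 21 bases after the cut (y axis, cycle 1 at the top) and by distance in bases from the register of the cut (x axis), with the number of reads as colour on a log scale and white for no read. At TAS1a the column at 0 leads in cycles 1 to 8 and that at 1 base in cycle 10 (72.4% of reads), and at TAS1b cycle 5 is led by the column at 6 bases (60.9%). At TAS1c and TAS2 the cells with the most reads off the column at 0 are mostly 1 siRNA each, at 1 base in cycle 9 (1455 reads of the siRNA) and at 3 bases in cycle 11 (1399).

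The genes resemble each other mainly before the cut. In pairwise alignments of the TAS1 genes, 78.4 to 85.8% of the columns before the cut were identical, against 48.1 to 59.8% over the first 10 cycles after it. TAS1 genes and TAS2 had 54.4 to 60.1% identical columns before the cut and 48.5 to 54.0% over the 10 cycles. Of the 10 in-register 21-base words of each TAS1 gene, 1 was present in the other TAS1 genes, and 0 were shared with TAS2. This word is the siRNA that starts at 484 of TAS1a, 479 of TAS1b and 421 of TAS1c, in cycle 6 of TAS1a and TAS1b and cycle 3 of TAS1c. It had 11 reads in rdr6 smRNA, 707 in Col-0 smRNA and 118 in Col-0 1X dsRNA, and these reads were counted at all 3 genes.

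Reads with 1 genomic location were the larger part at 3 of the genes. In Col-0 smRNA they made up 94.0% of the reads at TAS1a, 86.2% at TAS1c and 87.2% at TAS2, but 44.8% at TAS1b. In rdr6 smRNA the shares were 94.6%, 72.6%, 85.4% and, at TAS1b, 40%. Of the 41545 Col-0 smRNA reads, 1148 lay in both TAS1b and TAS1c and 725 in all 3 TAS1 genes. The reads that TAS1b shared with TAS1c alone include the 22-nt antisense reads opposite 461 to 482 of TAS1b and 424 to 445 of TAS1c, where the reference sequences of the 2 genes, shown next with the first base in capitals, are not identical and the allowed mismatches let the same read lie at both.
TAS1b, 22 nt, antisense (chr1:18549561-18549582, plus strand): Agaauaugcuauguuggacuua
TAS1c, 22 nt, antisense (chr2:16537833-16537854, plus strand): Agaauacgcuauguuggacuua
With non-redundant sequences counted once, the smRNA ratios were smaller, and the log2 ratio of rdr6 to Col-0 was −3.94 for TAS1a, −4.46 for TAS1b, −4.83 for TAS1c and −4.91 for TAS2, with all 4 called lower. With reads of 1 location alone, the log2 ratio of rdr6 to Col-0 smRNA was −5.55 for TAS1a, −6.48 for TAS1b, −7.31 for TAS1c and −7.22 for TAS2, and all 4 were called lower.

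TAS2 shared reads with PPR genes instead. Of its Col-0 smRNA reads, 1586 also lay outside the members, among them 1415 at AT1G63320 and 1408 at RPF3 (AT1G62930), a PPR gene. The antisense TAS2 siRNA opposite 629 to 649 had 11 reads in rdr6 smRNA and 1399 in Col-0 smRNA, and its main sequence also lay antisense in RPF3 (chr1:23307991-23308011, minus strand) and AT1G63320 (chr1:23489295-23489315, plus strand). Reads of these locations cannot be assigned to 1 of the 3 genes.

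The pathway list had 25 further genes. In smRNA-seq 12 were called lower in rdr6 (against 4.07% of all genes tested), 0 higher, 2 were not called and 11 had too few reads for a test. In dsRNA-seq 12 were called lower in rdr6 than in Col-0 1X (against 5.19% of all genes tested), 0 higher, 9 were not called and 4 were not tested. The 8 PPR genes were lower in both assays, and they are not independent of each other, since 71.4 to 99.6% of the Col-0 smRNA reads of each also lay in another of them. Reads shared with TAS2 made up 28% of those of RPF3, 2.04% of those of AT1G63080, 1.17% of those of AT1G63130 and 0 to 0.137% of those of the other 5. AT1G62590 fell the least, with 2818 reads in rdr6 smRNA and 5887 in Col-0 smRNA (log2 ratio −1.12). AT1G63400 followed, with 2804 and 7376 (−1.45). The remaining PPR genes had log2 ratios of −7.81 to −7.28, and AT1G62910 fell the most, with 23 and 4948 reads (−7.81). Of the 4 other TAS genes 3 were lower in both assays. AGO1, which carries miR173, had 8 reads in rdr6 smRNA and 80 in Col-0 smRNA (log2 ratio −3.38, called lower), while its dsRNA reads numbered 179 in rdr6, 456 in Col-0 2X and 166 in Col-0 1X (rdr6 to 1X 0.44, not called). The 5 TAS1 target genes had 0 to 3 smRNA reads in either library, too few for a test. In dsRNA-seq 3 of them were tested and not called, and 2 were not tested.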

How the data were processed

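The read counts were deposited by the authors as raw reads per non-redundant sequence, without normalization. The authors collapsed the reads, trimmed 3′ adapters where found, retained untrimmed reads, and aligned the sequences to TAIR9 (genome build from the submitters' processing notes), keeping every location with up to 6% mismatches. The deposited files hold lengths, counts and locations, not sequences. Here each read was counted at every location that overlaps a gene of the TAIR10.1 annotation (RefSeq), on either strand, and scaled by mapped reads.

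Genes with at least 10 reads in the 2 libraries compared were tested with the exact one-sided Audic–Claverie test and called at a ratio of at least 2 and p under 0.001. Benjamini–Hochberg adjustment covered all genes tested. Ratios have exact 95% intervals and shares have 95% Wilson intervals, which cover counting error only. Named genes are the 4 members, the 3 most frequent 21-nt locations of each, and a list of pathway genes and markers, named where called or where a result turns on them. The 24-nt and 22-nt locations and the long reads were chosen after their values were seen. Members and lists were chosen with earlier results of these data known. Alternatives were single-location reads, reads divided by their number of locations, non-redundant sequences, another scaling, another fold, other overlap and count minimums, read lengths, other register settings, the 2X reference and, chosen after the values were seen, leaving out the largest location. The tests were also run on simulated data. Tables were handled with pandas 2.3.3 and numpy 2.4.6 under Python 3.11.15, intervals and tests computed with scipy 1.17.1, alignments made with Biopython 1.88, and plots drawn with matplotlib 3.10.9.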

Additional observations from a re-analysis of the deposited data

How the results depend on the processing

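No paired analysis was possible because each condition has 1 library, and for the same reason no replicate could be left out. The smRNA ratios of the 4 members kept their direction and call in 32 of 32 alternatives, but not their size: counted as non-redundant sequences, they were −4.91 to −3.94 on the log2 scale (with reads −7.19 to −5.55), and the dsRNA ratios of rdr6 to Col-0 1X −4.19 to −3.19 (with reads −6.15 to −4.40). Of 124 ratios recomputed by gene, 113 kept direction and call, 8 lost their call and 3 turned direction. Of 143 shares and scores, 66 stayed within their counting interval (scores within 10% of their value) and 77 moved further. The dsRNA count of 4 members called lower in rdr6 fell to 2 with reads of 26 nt and longer (2 when scaled by their own total), and to 0 with these reads against Col-0 2X, where the log2 ratios turned to 0.33 (TAS1a), 0.81 (TAS1c) and 0.28 (TAS2). For Col-0 2X against 1X it fell to 2 with long reads scaled by their own total. Fewer reads enter these tests, and the cause of these changes was not tested. Over the 4 members in Col-0 smRNA, non-redundant sequences instead of reads gave 98.5% after the cut (reads 99.8%), 58.0% sense (64.4%), 52.7% of 21 nt (70.3%), 34.8% in register (61.9%), 89.3% with 1 location (85.6%) and a median phase score of 30.8 (47.9). Single-location reads gave 99.8% after the cut, 68.7% sense, 69.8% of 21 nt and 64.3% in register. The share in register was 72.4% within 1 base, 53.4% with 20 to 22 nt reads and 68.1% over 10 cycles, over which the median phase score was 61.7. Leaving out the largest siRNA, chosen after seeing the data, gave 22.9% at 1 base in cycles 6 to 10 of TAS1c (55.1%), and 30% at 3 bases (74.1%) and 49.2% at 2 bases (18.2%) in cycles 11 to 15 of TAS2. In rdr6, the 8 to 52 dsRNA reads a gene limit every share given for that library.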
